A study of Mus musculus with 6 samples.

Results

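The genes described here are 9 that move, store or sense iron, out of 19848 genes in the deposited RNA table. They were taken by name, and all 9 were found: Fth1, Ftl1, Slc40a1, Hmox1, Tfrc, Slc11a1, Slc11a2, Ireb2 and Aco1. The cells came from whole brains of female C57BL/6 mice, rinsed of blood with PBS, digested with a papain-based kit and enriched for mononuclear cells on a Percoll gradient. They were read by CITE-seq, which counts RNA and antibody tags in the same single cell. The 4 groups were 12-week-old and 72-week-old mice, called young and aged below, each given vehicle (control, with an unperturbed gut microbiota) or antibiotics (ABX, with a depleted gut microbiota). The 24 mice, 6 per group, were collapsed into 12 pools, 3 per group, so each value below averages animals within a pool, and the pool is the replicate throughout. Young and aged pools ran in separate wells of the 10x instrument, so age and well cannot be told apart. Hashtags 1 to 3 always marked control pools and 4 to 6 antibiotic pools, so hashtag and treatment cannot be told apart either.

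Cells bring in iron bound to transferrin through the transferrin receptor (Tfrc), release it from endosomes through the transporter DMT1 (Slc11a2), store it in cages of ferritin heavy (Fth1) and light (Ftl1) chains, and export it through ferroportin (Slc40a1). Macrophages also free iron from heme with heme oxygenase 1 (Hmox1) and pump metal out of phagosomes with NRAMP1 (Slc11a1). The iron regulatory proteins Aco1 (IRP1) and Ireb2 (IRP2) bind stem-loops in the mRNAs of ferritin, ferroportin and Tfrc, holding back ferritin translation and stabilising Tfrc mRNA when iron is scarce. Much of this control acts on translation and protein, which RNA levels do not show, and the antibodies of the study detect none of these 9 products.

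On GRCm38.p6, the RefSeq counterpart of the mm10 build named in the submitters' processing notes, the storage genes lie at chr19:9980600-9985111 (Fth1) and chr7:45457944-45459886 (Ftl1), and Tfrc at chr16:32608896-32632794. Hmox1 lies at chr8:75093618-75100593, Slc40a1 at chr1:45908070-45926532, Slc11a1 at chr1:74375014-74386057 and Slc11a2 at chr15:100387898-100424209. The sensors lie at chr9:54862658-54912534 (Ireb2) and chr4:40143265-40199009 (Aco1). RefSeq promoter windows were at hand for 6 of the 9 genes. Those of Fth1, Ftl1 and Tfrc are shown because the 2 members that passed a test in any cell type were Tfrc and Ftl1, and Fth1 encodes the partner chain of Ftl1. Each line gives the 150 bases just before an annotated start, 5′ to 3′ on the strand of the gene, and every start in the table is given. Capitals mark matches, on either strand, to any of 5 motifs. TATAA is the core of a TATA box. The letters ATTGG are a CCAAT box read from the opposite strand. A GC box has the letters GGGCGG. The hypoxia-type core searched was ACGTG, and no other form of it was searched. For antioxidant response elements the core searched was TGACNNNGC.
Fth1, first start, chr19:9980450-9980599, plus strand: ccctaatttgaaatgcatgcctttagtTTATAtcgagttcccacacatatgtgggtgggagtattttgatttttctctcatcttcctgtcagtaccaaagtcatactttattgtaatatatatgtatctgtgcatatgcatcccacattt
Fth1, second start, chr19:9982496-9982645, plus strand: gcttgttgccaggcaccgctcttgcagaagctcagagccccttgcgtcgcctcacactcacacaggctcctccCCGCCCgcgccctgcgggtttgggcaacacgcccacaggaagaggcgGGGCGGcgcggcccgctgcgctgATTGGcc
Ftl1, chr7:45459887-45460036, minus strand: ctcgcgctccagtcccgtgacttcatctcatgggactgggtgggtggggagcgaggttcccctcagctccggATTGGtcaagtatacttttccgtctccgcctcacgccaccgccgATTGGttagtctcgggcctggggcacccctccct
Tfrc, first start, chr16:32608746-32608895, plus strand: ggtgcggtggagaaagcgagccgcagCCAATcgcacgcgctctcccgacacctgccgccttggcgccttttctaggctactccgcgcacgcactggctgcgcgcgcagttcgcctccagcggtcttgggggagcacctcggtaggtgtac
Tfrc, second start, chr16:32608972-32609121, plus strand: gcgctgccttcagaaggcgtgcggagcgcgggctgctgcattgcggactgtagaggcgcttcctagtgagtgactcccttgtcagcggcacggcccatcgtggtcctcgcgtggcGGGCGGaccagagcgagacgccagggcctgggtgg
The ATTGG motif occurred 2 times in the Ftl1 stretch, once before the second Fth1 start and once before the first Tfrc start, and 37.4% of all 32851 promoter windows of 300 bases held it. The whole windows run from 250 bases before to 50 bases after the start and held further matches. Both Tfrc windows, which overlap each other, had 1 ACGTG match outside the printed stretch. The Ftl1 window had 1 TATAA and 1 GGGCGG match, both outside it. In all, the second Fth1 window had 1 TATAA and 3 GGGCGG matches, and the second Tfrc window 1 TATAA and 2 GGGCGG matches. ACGTG was in 19.6% of all windows, TATAA in 24.9% and GGGCGG in 35.7%. The antioxidant core was in 12.4% of all windows and in no window of the 6 members searched. Hmox1, Slc40a1 and Slc11a2 had no window at hand and were not searched. These are matches of letters, not measured binding sites, and the study measured no binding.

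The RNA values are UMI values that the authors corrected for depth with SCTransform, so a level below is a mean corrected value per cell and not a raw count. The table held 13052 cells in 10 types named by the authors, with 760 to 1590 cells and 5745242 to 13742781 raw UMIs per pool. Microglia made up 9403 cells, and border-associated macrophages (BAM) 506. The types named Ly6CLow and Ly6CHigh, after a monocyte surface marker, held 634 and 389 cells, and Ly6C+Ly6G+ cells, of which 340 had a summed value of at least 100 for the neutrophil genes S100a8 and S100a9, held 352. There were 59 cell barcodes that both wells held. The microglia markers P2ry12 and Tmem119 were found in BAM at 23.7% and 23.2% of their microglia level, and in the other 7 types compared at 2.08% to 7.80%. A member at a like share of its microglia level is read below as no more than that background.

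Ferritin RNA was in essentially every cell. Fth1 averaged 53.8 ± 8.97 (SD, n = 9 pools) in Ly6C+Ly6G+ cells, 46.0 ± 7.57 (n = 12) in BAM, 34.7 ± 7.54 (n = 12) in Ly6CLow and 28.8 ± 8.07 (n = 11) in Ly6CHigh cells. It was 26.1 ± 5.48 (n = 12) in B cells, 25.1 ± 2.71 (n = 12) in microglia and 12.1 to 15.5 in the T cells and innate lymphoid cells (ILCs). Levels in BAM were higher than in microglia in 12 of 12 pools, by 1.83 times on average, and the ranges did not overlap (35.6 to 55.8 against 20.2 to 28.8). Neighbours in this order overlapped throughout, and B cells were above microglia in only 5 of 12 pools. The authors' types come from the same cells, so these levels are a description with no test.

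Ftl1 gave another order. It averaged 34.0 ± 2.76 (n = 12) in BAM, 31.1 ± 5.84 in Ly6CHigh cells and 30.5 ± 2.94 in microglia, and the ranges of these 3 types overlapped. Ly6C+Ly6G+ cells had 24.8 ± 5.47 and Ly6CLow cells 23.8 ± 3.97, B cells had 13.4 ± 2.96, and CD4+, ILC and CD8+ cells had 7.61, 7.26 and 6.57. Hence the ratio of Fth1 to Ftl1 values differed between types. It was lowest in microglia (0.833 ± 0.134) and Ly6CHigh cells (0.929 ± 0.209), 1.35 ± 0.196 in BAM and 1.46 ± 0.213 in Ly6CLow cells, and 1.89 to 2.25 in CD8+, B, CD4+, ILC and Ly6C+Ly6G+ cells, whose pools overlapped. The 12 BAM pools ran from 1.03 to 1.64 and the 12 microglia pools from 0.555 to 1.02, so these 2 types did not overlap. The ratio is used to compare types and not chains, since capture can differ between genes. The table also lists the near-identical pseudogene Ftl1-ps1, at a mean of 0.237 per cell against 27.2 for Ftl1; the sources used here do not give how reads were split between the pair.

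**Figure D1:**
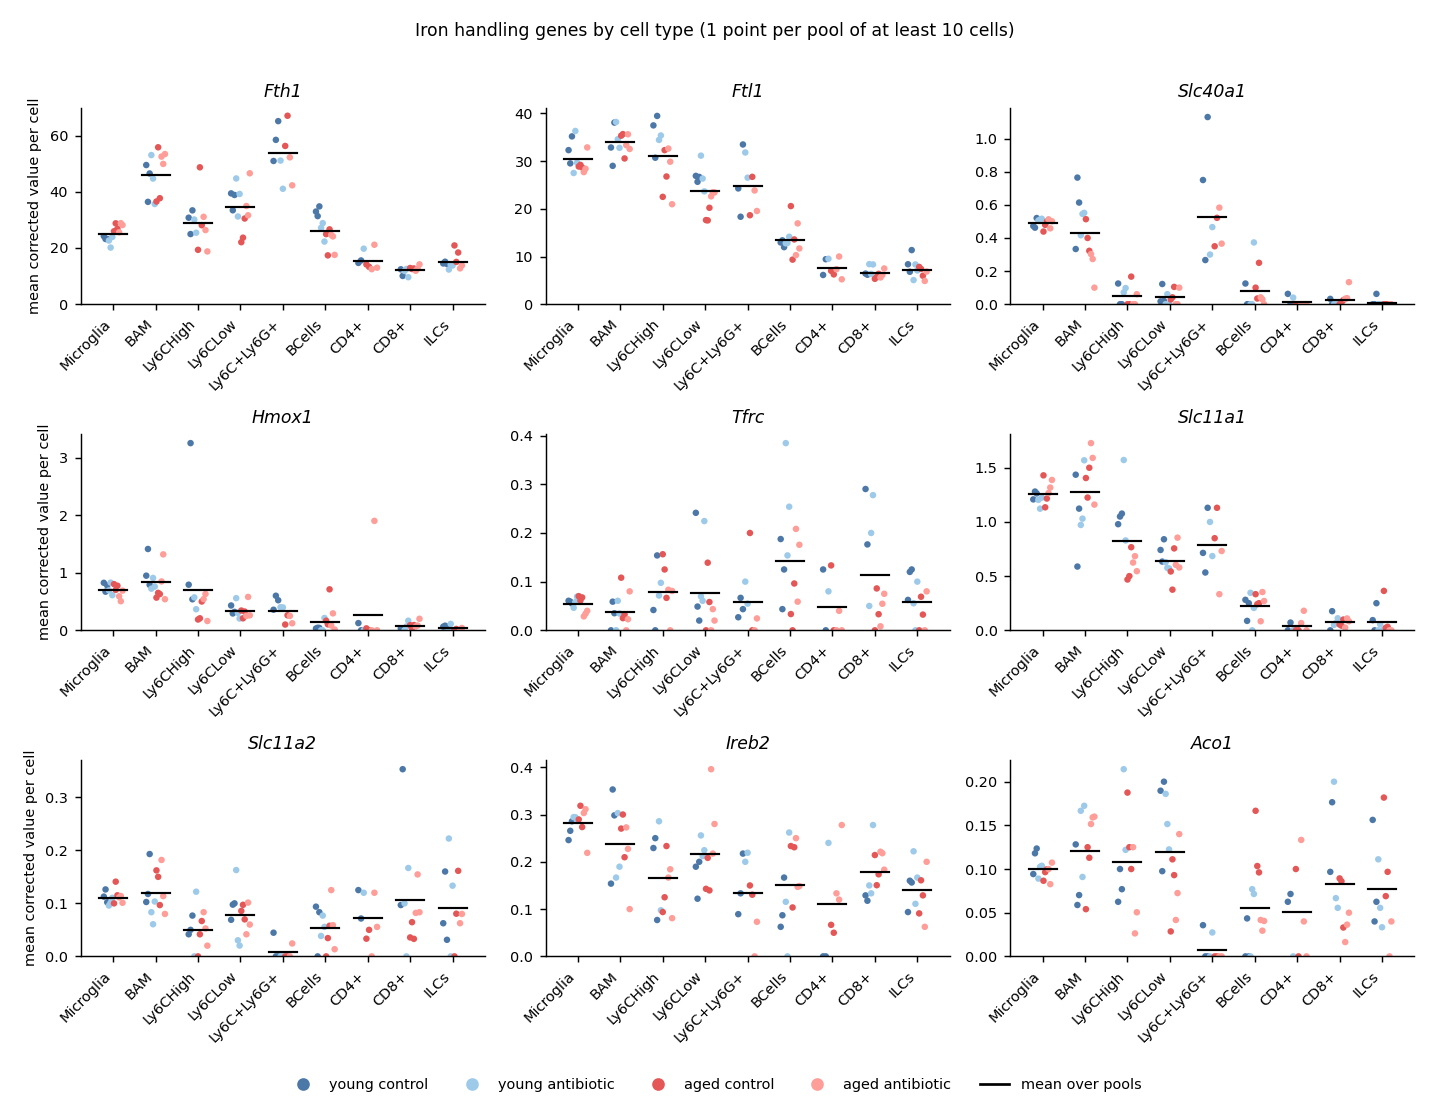
Mean corrected value per cell (vertical axes, linear, each gene with its own scale) of the 9 iron handling genes in 9 cell types; each point is a pool of at least 10 cells, coloured by group, and lines are means over pools. Fth1 is highest in Ly6C+Ly6G+ cells and BAM, Slc40a1 stands out in microglia, BAM and Ly6C+Ly6G+ cells, and single high points of Hmox1 in Ly6CHigh and CD4+ cells come from 1 cell each.

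Slc40a1, the iron exporter, was present at a sizeable level in only 3 of the 9 types with at least 100 cells. The mean was 0.526 ± 0.273 (n = 9 pools) in Ly6C+Ly6G+ cells, 0.490 ± 0.0267 (n = 12) in microglia and 0.428 ± 0.179 (n = 12) in BAM, and 0.00568 to 0.0795 elsewhere. On average 33.5% of microglia had a value above 0 (type median 6934 raw UMIs), against 1.62% of CD8+ cells (7096.5 raw UMIs). The order of the first 3 types was not settled by the pools: microglia were above BAM in 7 of 12, and Ly6C+Ly6G+ cells above microglia in 4 of 9. In Ly6C+Ly6G+ cells the level was 107% of that in microglia, whereas P2ry12 and Tmem119 stood at 5.42% and 5.56% there. In Ly6CLow cells Slc40a1 stood at 8.42% of the microglia level beside 6.93% for P2ry12, and that difference was not tested. BAM also held the microglia markers named above, and their part in its Slc40a1 value was not tested.

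Hmox1, which opens the heme ring and frees its iron, was highest in BAM (0.841 ± 0.276) and microglia (0.705 ± 0.101), with BAM above microglia in 8 of 12 pools. It was 0.340 ± 0.124 in Ly6CLow and 0.334 ± 0.169 in Ly6C+Ly6G+ cells and 0.0345 ± 0.0395 in ILCs, where it was at 4.89% of the microglia level. The mean of 0.704 in Ly6CHigh cells was raised by 1 cell, and the mean of 0.257 in CD4+ cells rested mostly on 1 cell. In Ly6CHigh cells of young control 2, 1 of 20 cells had a value of 59, and the pool mean of 3.25 was 0.316 without it. Over Ly6CHigh cells of at least 2000 raw UMIs (10 pools) the level was 0.894, and 0.586 without that cell. In CD4+ cells of aged antibiotic 2, 1 of 50 cells had a value of 93, and the pool mean of 1.90 was 0.0408 without it.

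Slc11a1, the phagosomal metal pump of macrophages and neutrophils, followed a myeloid order. Its mean was 1.28 ± 0.323 in BAM and 1.25 ± 0.0915 in microglia, which split the pools evenly (6 of 12), then 0.827 ± 0.327 in Ly6CHigh, 0.790 ± 0.268 in Ly6C+Ly6G+ and 0.642 ± 0.136 in Ly6CLow cells. Below these came B cells at 0.225 ± 0.113, with no overlap with Ly6CLow cells in 12 of 12 pools, and the T cells and ILCs at 0.0398 to 0.0744. The broadly expressed transporter Slc11a2 was low in all types (0.0505 to 0.120) except Ly6C+Ly6G+ cells, where it was 0.00767 ± 0.0160. Aco1 showed the same gap, with 0.0509 to 0.121 in the other types and 0.00701 ± 0.0141 in Ly6C+Ly6G+ cells. At that level 0.569% of Ly6C+Ly6G+ cells had a value above 0 for Slc11a2 and 0.701% for Aco1, although their median of 9232 raw UMIs was above the 6934 of microglia. Ireb2, the other sensor, was 0.135 ± 0.0729 in the same cells and ran from 0.111 in CD4+ cells to 0.282 ± 0.0281 in microglia.

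Tfrc was sparse everywhere. It was highest in B cells (0.143 ± 0.109) and CD8+ cells (0.114 ± 0.105) and lowest in BAM (0.0381 ± 0.0336), but no 2 neighbours in the order were separated by their pools. In microglia it was 0.0541 ± 0.0139, with a value above 0 in 4.15% of cells.

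Across the 9 types, the genes whose mean levels were most like each member were found by Pearson correlation among 10872 genes. Ftl1 was most like Lamp2, which encodes a lysosomal membrane protein (r = 0.989), and Slc11a1 (r = 0.986), and Slc11a1 in turn was most like Lamp2 (r = 0.993) and Lrrc25 (r = 0.987). Fth1 was most like Cib2 (r = 0.967) and Themis2 (r = 0.946), and Hmox1 like Rab5a (r = 0.978) and Ucp2 (r = 0.965). The second nearest to Slc40a1 was the complement receptor gene C5ar2 (r = 0.957). For Tfrc the nearest were Igkc, an immunoglobulin gene (r = 0.923), and C1galt1 (r = 0.910). Slc11a2 was most like Tex264 and Gopc (r = 0.986 and 0.981), Ireb2 like Tmem259 and Slc38a10 (0.981 and 0.978), and Aco1 like Zhx1 and Pno1 (0.977 and 0.976). These are descriptions over 9 points that share libraries and depth, taken as the best of many genes.

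In microglia, where all 9 members passed the filter of a mean of at least 0.05, the one that changed was Tfrc, the transferrin receptor. In aged mice it fell with antibiotics. The 3 aged control pools had 0.0701, 0.0613 and 0.0676 per cell and the 3 aged antibiotic pools 0.0286, 0.0340 and 0.0400, so every antibiotic pool was below every control pool. Cells with a value above 0 went from 119 of 2226 in aged controls to 57 of 2133 with antibiotics, which was 5.09% to 5.82% per control pool and 2.06% to 2.95% per antibiotic pool. The mean value of those positive cells was 1.24 and 1.30, close to the smallest value above 0 that whole numbers allow. Such sparse values cannot tell fewer cells with the RNA from less RNA in each cell. The log2 change was -0.47 (SE 0.10) on the log2(mean + 0.05) scale, with an adjusted p of 0.0169 from limma with Benjamini-Hochberg adjustment over 8759 genes. In this contrast 3.23% of all genes passed the threshold of 0.05, and 1 of 9 members did. The exact permutation test of 3 pools against 3 cannot go below 0.1, which is the value it gave.

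In young mice Tfrc did not differ with treatment beyond the pool spread: 0.0607, 0.0590 and 0.0551 in control pools and 0.0462, 0.0578 and 0.0691 in antibiotic pools, with a log2 change of -0.01 (95% interval -0.23 to 0.20). The test of the difference between ages gave -0.46 (SE 0.15) with an unadjusted p of 0.00563 and an adjusted p of 0.591, so an age dependence did not pass the correction, and by limma 0 of 8759 genes did (0%), with 579 at an unadjusted p under 0.05. Over both ages Tfrc had a log2 change of -0.24, with an adjusted p of 0.0601. The aged call was lost without aged control 1 (adjusted p 0.0666), aged control 3 (0.0533), aged antibiotic 1 (0.0563) or aged antibiotic 2 (0.0634), while the log2 change stayed between -0.42 and -0.47 there, and it was lost with no filter on low values (0.0615). The size depends on the pseudocount at so low a level: it was -0.08 with 0.5 and -0.79 with 0.01.

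**Figure D2:**
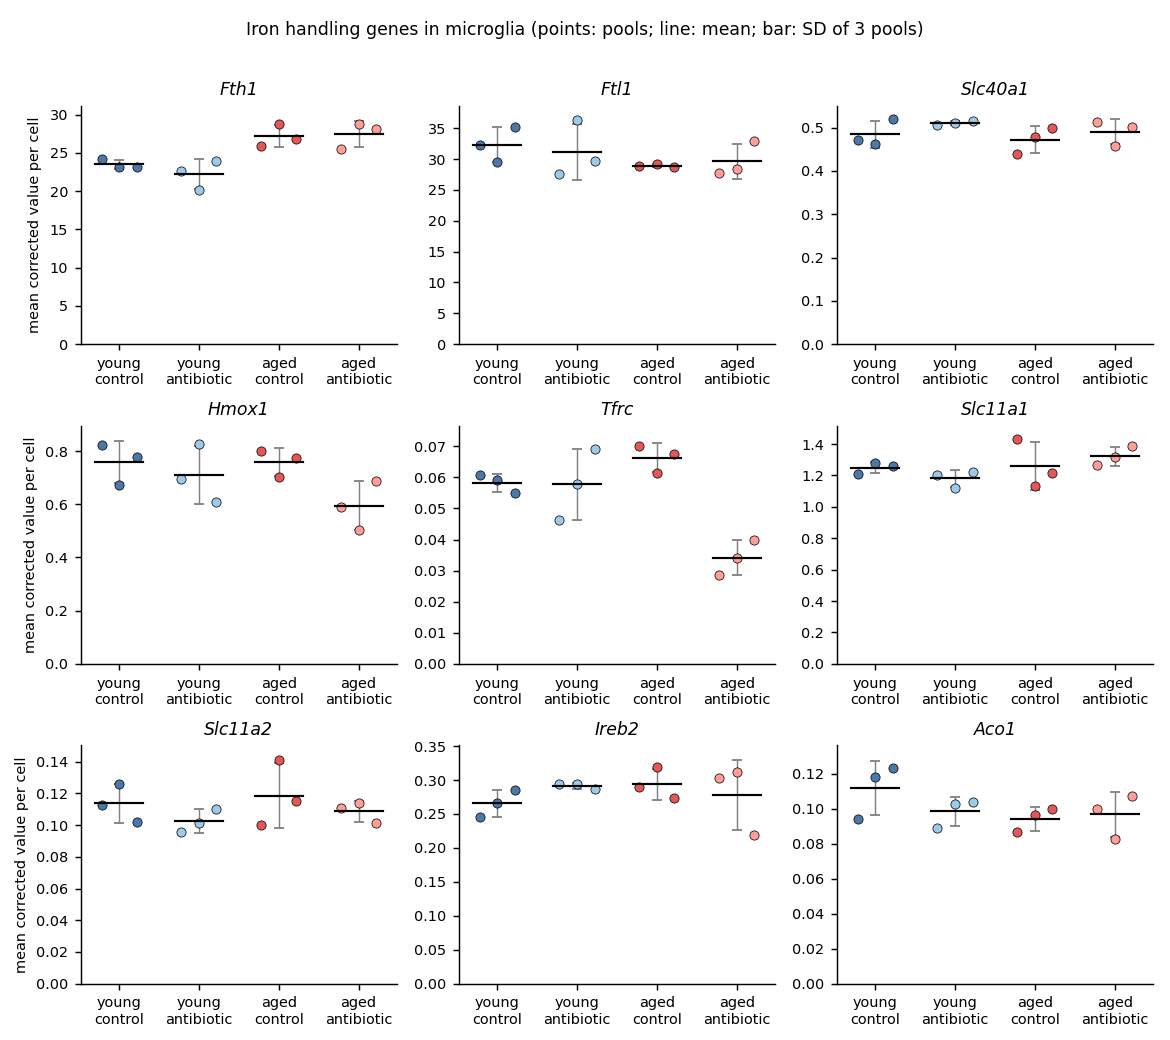
Mean corrected value per cell (vertical axes, linear from 0) of the 9 genes in microglia by group; points are pools, lines the mean and bars the SD of 3 pools. The aged antibiotic pools of Tfrc (0.0286 to 0.0400) sit below all aged control pools (0.0613 to 0.0701), and Fth1 sits higher in aged than in young control pools.

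Tfrc is also a marker of immature red cells, and 50 of the 9403 cells named microglia had a summed value of at least 100 for 4 hemoglobin genes. Their median was 17172.5 raw UMIs, against 6934 for all microglia. These cells averaged 2234 for Hbb-bs and 10.7 for Alas2, the erythroid enzyme of heme synthesis, and they still held P2ry12 at 5.76 against 10.6 in the other microglia. Tfrc was 1.74 in them against 0.0462 in the other 9353 cells, and 20 of 50 had a value above 0. Slc25a37, the mitochondrial iron importer mitoferrin 1, was 5.50 against 0.337. Fth1 was nearly alike (26.5 and 25.1), as was Ftl1 (27.9 and 30.6), and Ireb2 was 0.120 against 0.285. From 0 to 12 such cells fell in a pool, with 2 to 4 in the aged control pools and 0 to 6 in the aged antibiotic pools. Without them the aged control pools had 0.0571, 0.0615 and 0.0599 for Tfrc and the aged antibiotic pools 0.0223, 0.0323 and 0.0400. The log2 change was then -0.43 (SE 0.11) with an adjusted p of 0.0289 (limma), an alternative chosen after seeing the data. Genes were kept in this alternative by their means over all cells, where Tfrc averaged 0.0541, just over the filter of 0.05. Without the hemoglobin-rich cells the Tfrc mean over the pools was under that filter. On those means Tfrc would not have been tested.

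Hmox1 came next in size among the members in aged microglia but did not pass the correction. The aged control pools had 0.802, 0.701 and 0.774 and the aged antibiotic pools 0.591, 0.505 and 0.688, so the groups did not overlap. The log2 change was -0.34 (SE 0.11), with an unadjusted p of 0.00517 and an adjusted p of 0.0844 (limma). Of 25 alternatives only 3 passed the threshold, and the adjusted p reached 0.312 (limma). The log2 change ran from -0.44 to -0.09 over these alternatives. Among those that passed, it was -0.44 without aged antibiotic 3 (adjusted p 0.0383) and -0.41 with weights per pool (0.0251). In young mice the control pools (0.670 to 0.824) and antibiotic pools (0.610 to 0.828) overlapped, with a log2 change of -0.09 (SE 0.11). The 2 members whose aged pools did not overlap, Tfrc and Hmox1, stand beside 22.1% of all genes whose aged pools did not overlap.

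Ferritin did not differ with antibiotics in microglia at either age. For Fth1 the log2 change was -0.08 (95% interval -0.25 to 0.09) in young and 0.02 (-0.15 to 0.19) in aged mice, and for Ftl1 -0.06 (-0.27 to 0.15) and 0.03 (-0.18 to 0.24). With age, the Fth1 values of control pools went from 24.2, 23.2 and 23.2 in young to 25.9, 28.8 and 26.8 in aged mice, without overlap, and the log2 change of 0.21 (SE 0.08) had an adjusted p of 0.255. Ftl1 values were 32.3, 29.5 and 35.2 in young and 28.9, 29.2 and 28.7 in aged controls, also without overlap and in the opposite direction, the log2 change being -0.16 (SE 0.10, adjusted p 0.566). Neither passed the test, and 2.66% of all genes did in that contrast. Tfrc was the third member whose control pools did not overlap with age, and 19.6% of all genes had none overlapping.

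The exporter Slc40a1 and the phagosomal pump Slc11a1 varied little with treatment. All 12 microglia pools had Slc40a1 between 0.439 and 0.520, and its log2 change was 0.07 (95% interval -0.07 to 0.21) in young and 0.05 (-0.09 to 0.19) in aged mice. Slc11a1 ran from 1.12 to 1.43, with -0.08 (-0.23 to 0.07) in young and 0.07 (-0.08 to 0.22) in aged mice. Changes of Slc11a2, Ireb2 and Aco1 with treatment lay between -0.12 and 0.12, and all their intervals included 0. Ireb2 was the member whose young pools did not overlap (log2 change 0.12, adjusted p 0.728), beside 16.1% of all genes. In young mice 0 of 9 members passed, beside 0.137% of all genes, and over both ages 0 of 9, beside 5.4%.

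**Figure D3:**
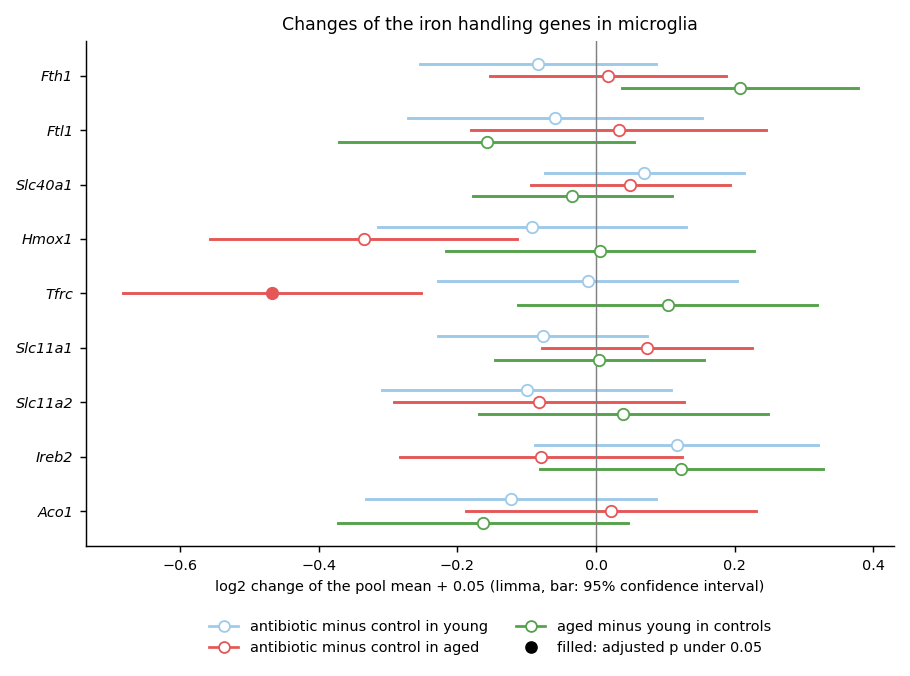
Log2 change of the pool mean + 0.05 (horizontal axis) for the 9 genes in microglia in 3 contrasts, with 95% confidence intervals from limma; filled points have an adjusted p under 0.05. The one filled point is Tfrc in aged mice at -0.47, and the interval of Hmox1 in aged mice runs from -0.56 to -0.11.

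Hmox1 was uneven among microglia. In 316 cells, 3.36% of the type, its value was 5 or more, and these held 42.3% of all Hmox1 in microglia. Ferritin went with it within pools. Microglia with Hmox1 at 0 had 28.1 ± 2.62 for Ftl1 (n = 12 pools), those at 1 to 4 had 35.3 ± 3.40 and those at 5 or more 44.5 ± 6.57, and both Hmox1-bearing classes were above the cells at 0 in 12 of 12 pools. Depth moved with the classes, at a median of 6610.5, 7593 and 7628.5 raw UMIs, so the comparison was repeated in cells of 6000 to 9000 raw UMIs, where the medians were 7281, 7372 and 7465. In that window the class at 5 or more held only 179 cells, with 8 to 23 per pool, so its pool means rest on few cells. There Ftl1 was 32.7, 36.3 and 44.6, and the cells at 5 or more were above the cells at 0 in 12 of 12 pools, by 1.36 times on average. Fth1 was 25.8, 27.4 and 30.2, higher in 11 of 12 pools and by 1.17 times. Slc40a1 did not follow: 0.553, 0.502 and 0.580, with cells at 5 or more higher in 4 of 12 pools. Slc11a1 was 1.34 at 0 and 1.48 at 5 or more, higher in 8 of 12 pools. Cells of a pool are not replicates, so these are counts of pools with no test.

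**Figure D4:**
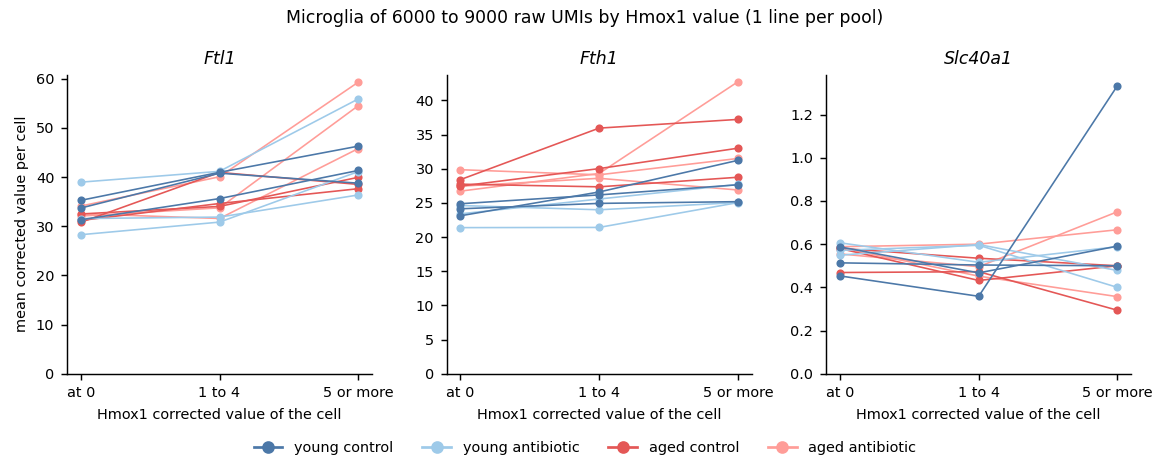
Mean corrected value per cell (vertical axes, linear from 0) of Ftl1, Fth1 and Slc40a1 in microglia of 6000 to 9000 raw UMIs, by the Hmox1 value of the cell; each line is a pool, coloured by group. Ftl1 lines climb from a mean of 32.7 to 44.6 in 12 of 12 pools, whereas Slc40a1 lines go both ways.

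In Ly6CLow cells, 8 of 9 members passed the filter (Slc40a1 did not), and the one called was Ftl1. It fell with age in controls, from 26.9, 25.7 and 26.7 in the young pools to 17.6, 17.6 and 20.2 in the aged pools, with no overlap. The log2 change was -0.52 (SE 0.12), with an adjusted p of 0.0491 (limma). Fth1 went the same way, from 39.4, 33.4 and 38.9 to 22.1, 23.7 and 30.5, with -0.56 (SE 0.16) and an adjusted p of 0.115. In that contrast 0.755% of all genes passed the threshold, 20.6% had pools that did not overlap, 31.8% had a log2 change above 0, and the median gene stood at -0.21. All 8 members tested had a log2 change below 0, with a median of -0.37.

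That call moved with cell depth. Between 22.1% and 40.3% of the Ly6CLow cells in an aged control pool had fewer than 2000 raw UMIs, against 2.00% to 9.76% in young control pools. Cells under 2000 raw UMIs averaged 6.24 for Ftl1 in aged controls, despite the correction for depth, and those with more 25.0 ± 1.21. With at least 2000 raw UMIs in each cell, the young pools had 27.3 ± 0.205, the log2 change was -0.13 and the adjusted p 0.956, and no gene was called by limma in that alternative. The call was also lost when pool means were scaled to the same total (-0.37, adjusted p 0.0908). Of the control pools, leaving out young control 1, 2 or 3 gave adjusted p-values of 0.161, 0.109 and 0.195, and leaving out aged control 1 or 2 gave 0.173 and 0.183. Without single antibiotic pools, which enter only through the shared spread, it was 0.0759 and 0.0562 (young antibiotic 2 and 3) and 0.0689, 0.0680 and 0.0514 (aged antibiotic 1, 2 and 3).

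With antibiotics in aged mice, ferritin values in Ly6CLow cells were on the higher side without passing the test. Fth1 was 34.9, 31.6 and 46.6 in the antibiotic pools, all above the aged control pools given above, the log2 change being 0.56 (SE 0.16), with an unadjusted p of 0.00280 and an adjusted p of 0.725. Ftl1 was 22.6, 23.4 and 23.4, again all above, with 0.33 (SE 0.12) and an adjusted p of 0.730. Ireb2 was 0.396, 0.217 and 0.280 against 0.143, 0.208 and 0.140, with 0.69 (SE 0.29) and an adjusted p of 0.759. With at least 2000 raw UMIs, Fth1 was 31.2 to 35.7 in aged control and 43.3 to 60.3 in aged antibiotic pools, and the log2 change was 0.56 with an adjusted p of 0.436. No gene of 8613 passed in this contrast (limma, 0%), where 535 had an unadjusted p under 0.05 and 11.3% had pools that did not overlap. The 3 members named were the ones with no overlap.

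**Figure D5:**
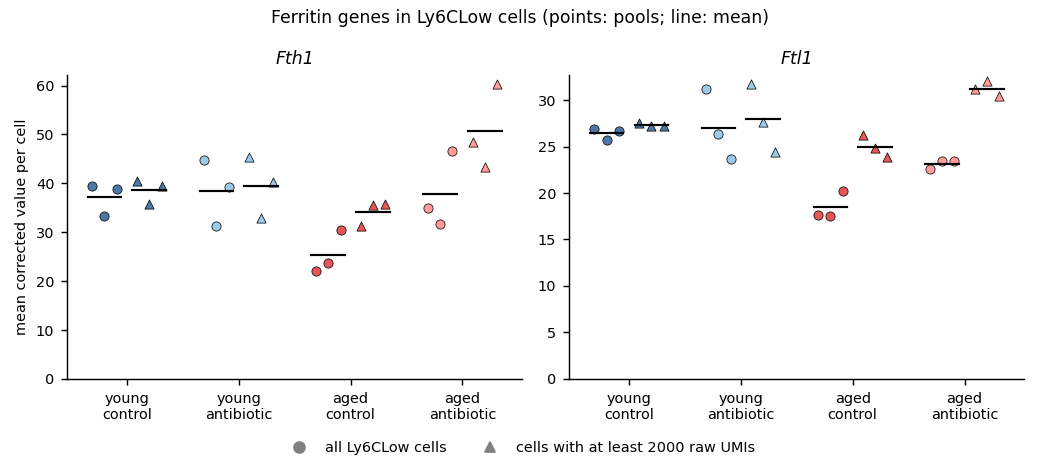
Mean corrected value per cell (vertical axes, linear from 0) of Fth1 and Ftl1 in Ly6CLow cells by group, over all cells (circles) and over cells with at least 2000 raw UMIs (triangles); points are pools and lines their means. For Ftl1 the aged control mean is 18.5 over all cells and 25.0 over the deeper cells, while the young control means are 26.4 and 27.3.

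In BAM, the macrophages of brain borders, 8 of 9 members were tested (Tfrc was too low) and 0 were called in any of the 5 contrasts by limma. Of all genes, 0.0224% were called for antibiotics in the young and 0.123% in the aged, 0.0559% with ages combined, 0% for the difference and 0.0447% for age. In aged mice 666 genes had an unadjusted p under 0.05 with antibiotics. Slc40a1 had the smallest p of the members with antibiotics in aged mice. The aged antibiotic pools had 0.303, 0.273 and 0.100 and the aged control pools 0.514, 0.400 and 0.323, with no overlap (log2 change -0.82, SE 0.33, adjusted p 0.584). Aco1 was the other member without overlap there (log2 change 0.53, adjusted p 0.821), beside 14.5% of all genes. Much of the first Slc40a1 value came from 1 cell at 6, and that pool was 0.125 without it. The summed microglia markers in BAM moved alongside, at 16.8 to 25.8 in the aged antibiotic pools and 30.6 to 48.1 in the aged control pools, and their part in the result was not tested. Hmox1 in BAM was 0.949, 1.41 and 0.789 in young and 0.568, 0.650 and 0.629 in aged control pools, with no overlap (11.3% of all genes; log2 change -0.69, SE 0.27, adjusted p 0.795). In the second young pool 1 cell had a value of 14, and without it that pool was 0.625, within the range of the aged pools.

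In the remaining types tested, which were Ly6CHigh, Ly6C+Ly6G+, B, CD8+ and ILC, no member was called in any contrast by limma. The shares of all genes called were low too. In these types the fit recovered only 0% to 9% of genes shifted by 1 on the log2 scale in simulated data. They were 0% in every contrast of Ly6CHigh cells, 0% or 0.0145% in Ly6C+Ly6G+ cells, and 0% in B cells except for 0.0596% with age. In CD8+ cells they were 0.145% for antibiotics in young mice, 0.0121% in aged mice and over both ages, 0% for the difference and 0.241% with age. In ILCs they were 0.06%, 0.084%, 0.012%, 0.048% and 0.912% in the same order of contrasts. B-cell Fth1 with age had a log2 change of -0.55 (adjusted p 0.261) and Ly6CHigh Hmox1 with age one of -1.87 (adjusted p 0.270), the latter with the single cell of 59 in it. ILC Fth1 was 18.1 in aged controls and 13.3 with antibiotics (-0.44, adjusted p 0.525), and CD8+ Tfrc was 0.233 in young and 0.0397 in aged controls (-1.75, adjusted p 0.233). Only 2 young control pools had enough CD8+ cells, and in 1 of them, young control 1, a single cell with a value of 8 carried the mean, which was 0.290 with it and 0.0333 without it. In Ly6CHigh cells, 23.3% to 78.1% of cells per aged control pool had fewer than 2000 raw UMIs, against 0% to 5% in young control pools, and the part of this in the age values was not tested. CD4+ cells had too few pools with at least 10 cells, and the 9 NK cells were not tested.

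Around the members, 70 further iron and heme genes in 5 lists were read in the same fits. In microglia, 48 of them passed the filter, and 4 were called in some contrast. These were 3 of 48 with antibiotics in aged mice (3.23% of all genes), 2 of 48 over both ages (5.4% of all genes) and 2 of 48 with age (2.66% of all genes). Ncoa4, the receptor that carries ferritin to the lysosome, fell with antibiotics. The 3 young control pools had 0.401, 0.449 and 0.466 and the young antibiotic pools 0.341, 0.361 and 0.411, while the aged control pools had 0.384, 0.389 and 0.415 and the aged antibiotic pools 0.279, 0.284 and 0.354. Over both ages the log2 change was -0.27 (SE 0.06), with an adjusted p of 0.0144, and in aged mice alone -0.33 (SE 0.09), with 0.0437. The call over both ages was kept in 23 of 24 alternatives, the exception being no filter on low values (0.0643). In aged mice alone it was lost without any of aged control 1, 2 or 3 (0.0832, 0.103 and 0.128), aged antibiotic 1 or 2 (0.126 and 0.163), young control 2 or 3 (0.0517 and 0.0518) or young antibiotic 2 (0.0519). It was also lost with no filter on low values (0.118), no trend in the prior variance (0.0701) or only the aged pools in the fit (0.0655). In this list, on ferritin turnover and iron regulation, Ncoa4 was the 1 of 6 tested genes called, beside 3.23% of all genes in aged mice and 5.4% over both ages.

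Slc7a11, the cystine importer that feeds glutathione synthesis, was the 1 of 9 genes called among the antioxidant genes, beside 2.66% of all genes with age, 3.23% with antibiotics in aged mice and 5.4% over both ages. It rose with age in controls, from 0.107, 0.105 and 0.0694 to 0.118, 0.208 and 0.185 (log2 change 0.60, SE 0.16, adjusted p 0.0479). It fell with antibiotics in aged mice, to 0.0810, 0.0905 and 0.0968 (-0.64, SE 0.16, adjusted p 0.0329). The age and treatment contrasts share the aged control pools. Neutrophil-type cells carry much Slc7a11 (3.96 in Ly6C+Ly6G+ cells against 0.108 in microglia), and without the 21 microglia rich in S100a8 and S100a9 the aged change was -0.65 with an adjusted p of 0.0114. The aged call was lost without aged control 2 (0.157) or 3 (0.107) or any of aged antibiotic 1 (0.0857), 2 (0.0898) and 3 (0.0532), and the age call without any of 9 single pools, the highest adjusted p being 0.241 without aged control 2. Over both ages it was -0.41 with an adjusted p of 0.0371, which was lost without any of 8 single pools, at up to 0.108 without aged control 2. With no filter on low values the adjusted p was 0.145 in aged mice, 0.214 with age and 0.172 over both ages, and with no trend in the prior variance it was 0.0519, 0.0802 and 0.0579, so these calls were lost too. The age call was also lost with a pseudocount of 0.01 (0.0640) or with cells of at least 2000 raw UMIs (0.0594).

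Slc25a28, the mitochondrial iron importer mitoferrin 2, rose with antibiotics in aged mice, from 0.231, 0.247 and 0.257 to 0.306, 0.324 and 0.299 (log2 change 0.29, SE 0.07, adjusted p 0.0365). It was the 1 of 17 tested genes called in the list of mitochondrial iron, heme synthesis and iron-sulfur genes, beside 3.23% of all genes. The call was lost without any single aged pool, with adjusted p-values from 0.0507 to 0.144, and without young control 3, and also with no filter on low values (0.0588) or only the aged pools in the fit (0.0742). Ltf, the iron-binding lactoferrin of neutrophil granules, fell with age in controls (0.184, 0.175 and 0.0673 against 0.0284, 0.0123 and 0.0122, log2 change -1.45, SE 0.37, adjusted p 0.0400). It was the 1 of 9 called in the list of uptake and transport, beside 2.66% of all genes. Its level in Ly6C+Ly6G+ cells was 46.8, and the summed 9 neutrophil markers in microglia moved alongside, at 3.77 to 8.07 in young and 2.08 to 2.36 in aged control pools. Every aged microglia pool had Ltf under the filter of 0.05 (0.0107 to 0.0429) and every young pool had it above (0.0634 to 0.485). Ltf was therefore tested only through the young pools. Without the cells rich in S100a8 and S100a9 the log2 change was -0.74 with an adjusted p of 0.00631 (limma). Its mean over the pools was then under the filter too, and it was kept there by its mean over all cells. The Ltf call was lost without young control 1 (0.185) or 2 (0.172), aged control 1, 2 or 3 (0.0792, 0.151 and 0.118) or aged antibiotic 3 (0.0509). It was also lost with a pseudocount of 0.5 (log2 change -0.31, adjusted p 0.263), no filter on low values (0.233) or no trend in the prior variance (0.0923). None of 7 heme breakdown and transport genes was called in microglia, and none of the 5 lists had a gene called in Ly6CLow cells or BAM.

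By level, the further genes with no overlap between their highest and next type were highest in BAM, microglia or Ly6C+Ly6G+ cells. Most further genes did overlap. Ly6CHigh cells were highest, with overlap, for 5 of 19 genes of the mitochondrial list and 3 of 10 antioxidant genes with a level of at least 0.05. Among these were Prdx1 (3.91, next BAM at 2.43) and Gpx4 (3.74, next Ly6C+Ly6G+ at 3.01). BAM held the hemoglobin scavenger receptor Cd163 at 2.46 per cell against 0.00313 in microglia, the ferroxidase ceruloplasmin Cp at 1.02 against 0.0297 and the biliverdin reductase Blvrb at 1.85 against 0.561, each with no overlap with the next type. Hmox2 (0.831, next microglia at 0.769) and Blvra (0.523, next Ly6CHigh at 0.431) were also highest in BAM, but with overlap. In microglia the heme and folate carrier Slc46a1 (0.305, next BAM at 0.0914), the hemopexin receptor Lrp1 (2.15, next Ly6CHigh at 1.38) and the small Maf gene Mafg (1.62, next Ly6C+Ly6G+ at 0.958) were highest without overlap. Transferrin itself, Trf, was 5.99 in BAM and 4.95 in microglia, with overlapping pools. In Ly6C+Ly6G+ cells the siderophore-binding Lcn2 (87.0), Ltf (46.8) and Slc7a11 stood apart, and the iron sensor Fbxl5 (1.58) and Ncoa4 (1.06) were highest with overlap. The liver iron hormone Hamp was at 0 in every type.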

How the data were processed

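RNA values are scores: whole numbers that the authors corrected for depth with SCTransform and deposited, as the file names and the deposited metadata give it. Their sum per cell equalled the corrected total of the metadata in all 13052 cells. Raw UMI counts per cell are the totals in the authors' deposited metadata, which also gave hashtag, group and cell type. The submitters' processing notes name mm10, Cell Ranger 3.0.2 and Seurat 3.0.1. All 13052 cells carried the authors' singlet class from the hashtags, which cannot mark 2 cells of the same pool, and no further doublet caller was run. Because the values are corrected, no count model was used. Values were averaged per pool and type over pools of at least 10 cells and tested as log2(mean + 0.05) with limma 3.58.1 (R 4.3.3, trended prior variance, all 4 groups in 1 fit), over genes with a mean of at least 0.05. P-values were adjusted by the Benjamini-Hochberg method over all genes within each of 5 contrasts, with a threshold of 0.05. Intervals are 95% limits of that fit. Hashtag number did not pair young and aged pools. Members and lists were chosen with earlier results of these data known. Named genes were all 9 members, list genes called in microglia or Ly6CLow cells, and the 2 genes most like each member, of which 1 is not reported here. Tested on simulated data for the antibiotic contrast at the older age, where 200 genes were shifted by 1 on the log2 scale, the fit recovered 99% in microglia (8759 genes), 19% in Ly6CLow cells (8613) and 14% in BAM (8942). Recovery was 9% in CD8+ cells, 4.5% in B cells, 3.5% in Ly6CHigh cells, 2% in ILCs and 0% in Ly6C+Ly6G+ cells. The absence of a call in those types therefore says little. Antibody tags were not used here.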

Additional observations from a re-analysis of the deposited data

How the results depend on the processing

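No called log2 change reversed. Of 82 log2 changes followed, 19 changed sign under at least 1 alternative, none of them past the threshold as reported or under any alternative (lowest adjusted p 0.383, limma), so no direction is read from them. The count of members past the threshold in microglia with antibiotics in aged mice, 1 as reported, was 2 with array weights or the mean of log2(value + 1) over cells, and 0 with no filter or a filter on a mean of at least 0.2, which removes Tfrc. Leaving out single pools gave 0 to 2. Over both ages the count of 0 became 2 with array weights and 1 without a trend in the prior variance or with values capped at the 99th percentile, and 0 to 2 without single pools. In Ly6CLow cells with age, the count of 1 became 2 with the mean of log2(value + 1), and 0 with a pseudocount of 0.5 or 0.01, cells of at least 2000 raw UMIs, no filter, scaled pool means, no trend or only the compared pools, and 0 to 2 without single pools. It was also 0 without hemoglobin-rich cells and without cells rich in S100a8 and S100a9, 2 alternatives chosen after seeing the data. With the replicate block on hashtag number it was 0 as well (Ftl1 adjusted p 0.115, limma), with 55 genes called against 65. Pools of the same hashtag number correlated at -0.09 to 0.11, so the numbers did not pair the pools. By level, 160 alternatives stayed within 1 SD and 2 moved further. With at least 2000 raw UMIs the highest type became Ly6CHigh for Ftl1 (36.0) and Hmox1 (0.894, or 0.586 without the single cell of 59), microglia for Slc11a1 (1.35) and Ly6CLow for Aco1 (0.129), and the lowest for Tfrc became Ly6C+Ly6G+. With values scaled per cell, microglia became highest for Slc11a1 (1.26) and Slc11a2 (0.111). CD4+ and NK cells were not tested because too few pools held 10 of them.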
